A study of Mus musculus with 6 samples.

Results

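The 10 genes studied here, whose proteins make piRNAs or act with them, were followed in sorted lung epithelial cells that did or did not carry the reporter of the Piwi gene Piwil4. They are Tex15, Tdrkh, Tdrd7, Mybl1, Pld6, Henmt1, Mov10l1, Asz1, Gtsf1 and Tdrd1, 10 of the 48577 genes in the deposited count files, taken by gene symbol. Tex15 was chosen by its measured reads, which were fewer in the tdTomato-positive libraries, so its values below are a description and carry no test. The others were taken by name as known pathway genes. The tdTomato-positive group held 3 libraries and the tdTomato-negative group 3 libraries, 1 of each from each of 3 Miwi2tdTomato mice of strain C57BL/6, all carrying the reporter allele. Lung cells lacking CD45, a leukocyte surface marker, and bearing EpCAM, an epithelial surface marker, were sorted by tdTomato fluorescence. The labels call both groups multiciliated cells, name no gate for cilia, and give neither the age nor the sex of the mice.

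piRNAs are small RNAs bound by Piwi proteins, and in the germ line they silence transposons through RNA cleavage and, in the nucleus, DNA methylation. Most of what is known of the mouse pathway comes from the testis, where precursors are processed at the mitochondrial surface and Tudor proteins dock onto methylated arginines of Piwi proteins. MIWI2, the product of Piwil4, is the nuclear Piwi protein of fetal male germ cells. Genes of the germ line pathway were therefore looked at in lung cells that express Piwil4.

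Promoters of germ line genes are often rich in CpG dinucleotides, where DNA methylation is placed. RefSeq windows on GRCm38.p6, running from 250 bases before to 50 bases after a transcript start, matched 8 of the 10 genes, and Tex15 and Mybl1 had none. Tdrd7 and Tdrd1 had 3 windows each and Pld6 had 2, and the 1 nearest the GENCODE start of the gene was taken. The windows of the Tudor genes Tdrd7, Tdrkh and Tdrd1 and of Asz1 are printed up to the start, 5′ to 3′ on the gene's strand, because these genes run from the most abundant RNA measured here to 1 read in all libraries together. Capitals mark each CpG. Their positions are chr4:45965085-45965334 on the plus strand, chr3:94412994-94413243 on the plus strand, chr19:56825959-56826208 on the plus strand and chr6:18109062-18109311 on the minus strand.
Tdrd7: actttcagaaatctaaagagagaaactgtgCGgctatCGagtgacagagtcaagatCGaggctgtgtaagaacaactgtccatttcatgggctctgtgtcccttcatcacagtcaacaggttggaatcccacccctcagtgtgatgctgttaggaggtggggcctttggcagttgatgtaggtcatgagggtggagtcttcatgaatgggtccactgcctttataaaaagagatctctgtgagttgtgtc
Tdrkh: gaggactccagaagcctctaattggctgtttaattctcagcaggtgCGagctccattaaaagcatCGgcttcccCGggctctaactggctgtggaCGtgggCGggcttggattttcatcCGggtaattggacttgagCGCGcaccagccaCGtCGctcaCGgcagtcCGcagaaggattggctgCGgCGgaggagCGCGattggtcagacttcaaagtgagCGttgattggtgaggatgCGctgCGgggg
Tdrd1: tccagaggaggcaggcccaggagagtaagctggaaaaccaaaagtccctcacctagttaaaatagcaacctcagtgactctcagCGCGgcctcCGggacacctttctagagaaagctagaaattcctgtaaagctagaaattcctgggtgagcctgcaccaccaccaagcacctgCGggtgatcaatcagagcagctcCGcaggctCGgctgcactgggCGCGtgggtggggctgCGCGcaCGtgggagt
Asz1: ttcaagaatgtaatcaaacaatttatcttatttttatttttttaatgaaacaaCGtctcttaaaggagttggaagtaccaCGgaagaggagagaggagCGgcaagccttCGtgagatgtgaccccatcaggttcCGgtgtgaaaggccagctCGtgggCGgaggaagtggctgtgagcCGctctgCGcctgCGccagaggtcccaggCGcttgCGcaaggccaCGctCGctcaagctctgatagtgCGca

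Over the 300 bases of each window, Tdrd7 held 4 CpGs, the fewest of the 8 genes, and Henmt1 held 31, the most. The Henmt1 window was set 684 bases from the GENCODE start of that gene, against 0 to 85 bases for the other 7, and it was the 1 window whose last 20 bases lay in no GENCODE transcript of its gene. Tdrkh held 25, Mov10l1 and Tdrd1 20 each, Pld6 18, Asz1 17 and Gtsf1 13. The median of all 32851 windows was 7, so Tdrd7 lay below it and the other 7 genes above it. In the windows taken, the gene with the most RNA per length among those 8 thus had the fewest CpGs, while Tdrkh had more CpGs than the genes with almost no reads. The other windows of Tdrd7, Tdrd1 and Pld6 are not described, and which start is used in these cells was not tested. The E-box CACGTG, searched on both strands, was found in the windows of Pld6, Mov10l1 and Tdrd1, and in 7.15% of all windows. The MYB core AACNG was found in 7 of the 8 windows and in 80.3% of all windows, and GCGGGAA, an E2F-type motif, in none of the 8 and in 4.60% of all windows. CACGTG and AACNG share no core, and these matches describe letters only.

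Reads assigned to genes numbered 5602309 to 5763317 in the positive and 5330584 to 6326395 in the negative libraries, so 1 read was worth 0.158 to 0.195 CPM, read counts scaled by library size and TMM factors. A gene with no read could be at up to 0.475 to 0.507 CPM in a positive and 0.576 to 0.585 CPM in a negative library, the level of 3 reads. On the first principal component 1 library, the positive one of mouse 1, lay at 79.4, away from the others at -35.2 to 7.80. Piwil4 had 599, 605 and 701 reads in the positive libraries of mice 1, 2 and 3 and 227, 156 and 234 reads in the negative ones, and the tdTomato row had 37, 16 and 18 reads in the positive and 0 in all negative libraries. All 15 multiciliated markers listed were measured in both groups, at summed levels of 8272 to 9404 CPM in positive and 8359 to 9101 CPM in negative libraries. Hydin and the dyneins Dnah12, Dnah5 and Dnah9 were the most abundant of them. Gene by gene, 12 of the 15 had a log2 fold change above 0, where the median of all genes tested was 0.03. None was called by edgeR, and 6 had an unadjusted p under 0.05. Of those 6, Dnah12 was lower in the positive library of 3 of 3 mice (log2 fold change -0.37), and the others had a fold change above 0. With the mouse as a term, 3 markers were called higher. Of all genes tested, 0.622% were called without and 3.15% with that term, in either direction. Foxj1, the transcription factor of multiciliated cells, was at 870, 402 and 270 CPM for positive cells of mice 1, 2 and 3 and 484, 138 and 116 CPM for negative cells, higher in 3 of 3 mice (edgeR adjusted p = 0.665, and 0.000129 with the mouse as a term). Alveolar type 2 markers, genes of the surfactant-making cells, summed to 586 to 1149 CPM in positive and 6683 to 8044 CPM in negative libraries.

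Tex15 encodes a large germ cell protein that in mouse testis is needed to silence transposons together with the Piwi proteins. The gene lies on chromosome 8 at 33516738 to 33585582 (GRCm38, plus strand). It had 0, 8 and 9 reads in the positive libraries of mice 1, 2 and 3, against 95, 110 and 138 reads in the negative libraries. In CPM, the positive libraries were at 0, 1.27 and 1.43 and the negative ones at 18.4, 21.1 and 26.9. Every positive library was thus below every negative one, and the positive library of mouse 1 had no read at all, which allows up to 0.507 CPM. The fitted log2 fold change (tdTomato-positive over tdTomato-negative) was -4.57, or 23.8-fold lower, and -4.01 without the positive library of mouse 1.

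**Figure D1:**
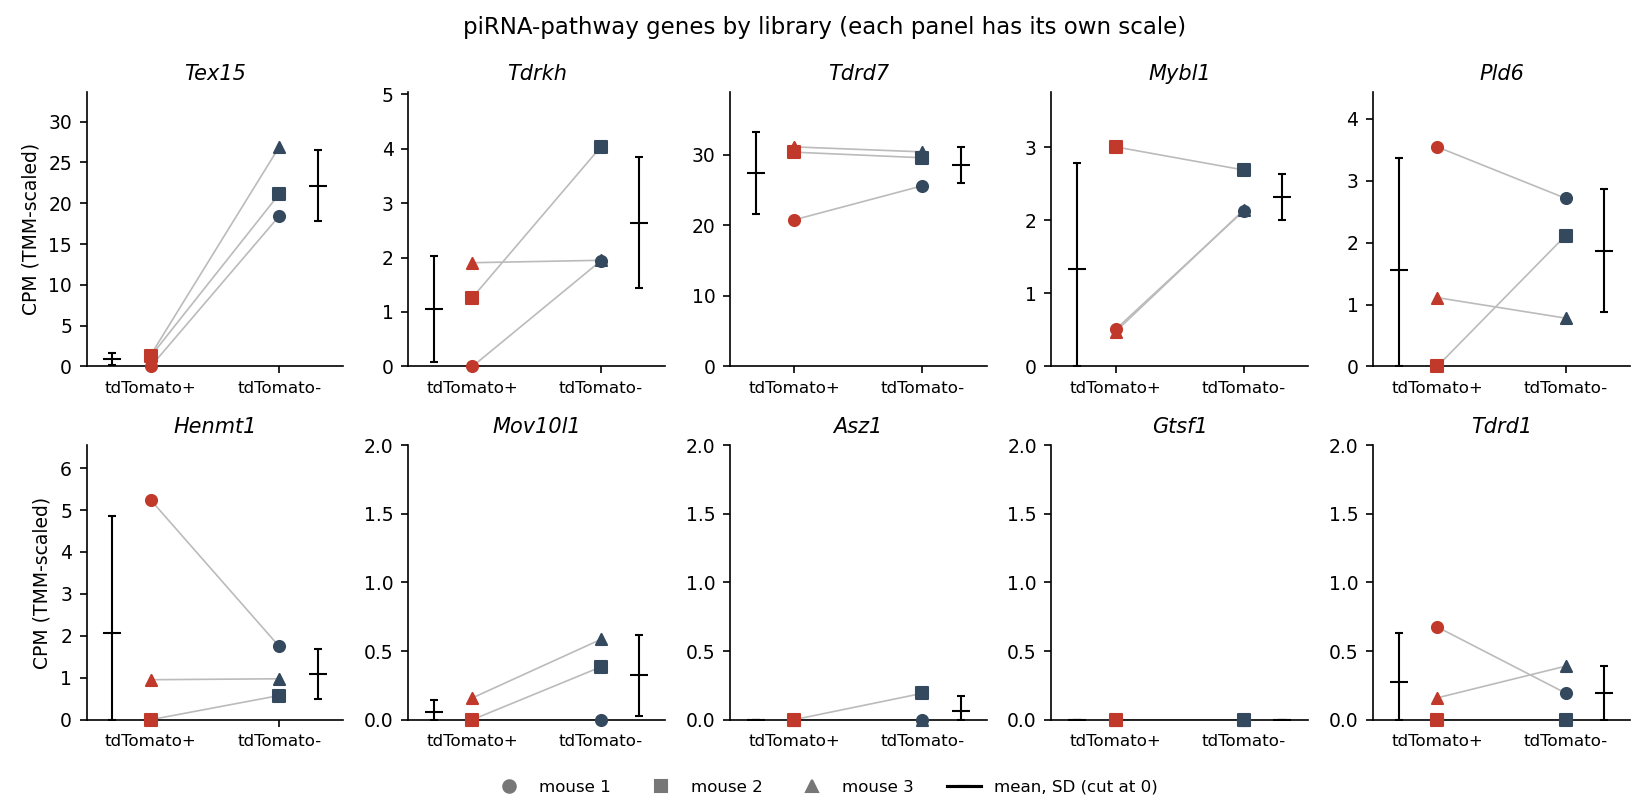
CPM of each of the 10 genes in the tdTomato-positive (red, left) and tdTomato-negative (dark, right) library of each mouse, joined by grey lines, with the mean and SD of 3 libraries beside them. Tex15 lies at 0 to 1.43 CPM in positive and 18.4 to 26.9 CPM in negative libraries, whereas Tdrd7 lies at 20.8 to 31.1 and 25.6 to 30.4 CPM.

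Alveolar type 2 markers were lower in the same libraries as Tex15. Of 11 such markers, 11 were detected and 6 fell by the edgeR test, or 8 with the mouse as a term, where 0.622% and 3.15% of all genes tested were called in either direction. Their mean sum was 8.26 times as high in negative as in positive libraries, against 24.7 times for mean Tex15 CPM. Per 1000 CPM of these markers, Tex15 stood at 0, 1.10 and 2.44 CPM in positive libraries (mice 1, 2 and 3) and 2.32, 3.16 and 3.35 CPM in the negative ones. On that scale the positive library of mouse 3 overlapped the negative group, although Tex15 stayed lower in the positive library of each mouse. That overlap rests on 9 Tex15 reads, whose 95% Poisson interval of 4.12 to 17.1 reads holds counting error alone. Whether the quotient separates the groups is thus not settled. The 4 basal cell markers, of which Trp63 had no read in any positive library and Krt14 none in any negative one, summed to 0 to 0.791 CPM in positive and 7.57 to 14.0 CPM in negative libraries. Which cells of the negative fraction hold Tex15 RNA was not tested, and in sorted bulk samples fewer cells of a type and less RNA per cell cannot be told apart.

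**Figure D2:**
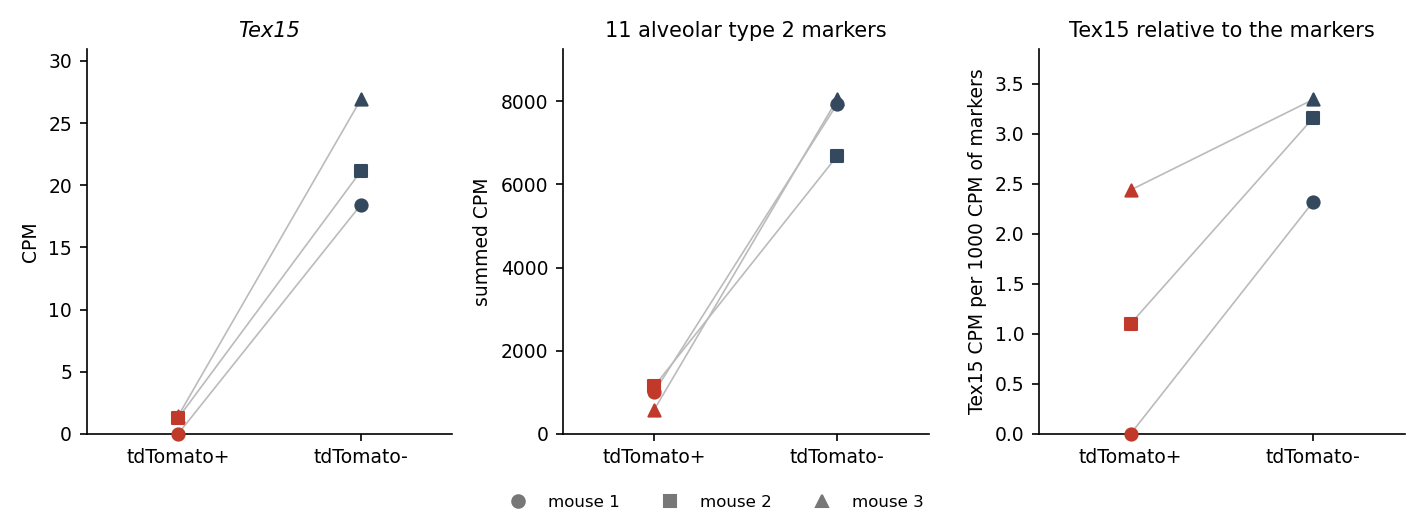
Tex15 CPM, the summed CPM of 11 alveolar type 2 markers, and Tex15 CPM per 1000 CPM of those markers, in tdTomato-positive (red, left) and tdTomato-negative (dark, right) libraries, with lines joining the libraries of 1 mouse. Tex15 and the markers separate the groups, and their quotient, 0 to 2.44 in positive and 2.32 to 3.35 in negative libraries, does not. The overlapping positive value, of mouse 3, rests on 9 Tex15 reads.

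Among 11185 tested genes that averaged 1 or more in log2 CPM and had a named symbol (Gm and Rik identifiers left out), 296 had a Pearson correlation with Tex15 above 0.9 over the 6 libraries in log2 CPM. The 5 highest were Hc, Kansl1l, Ndnf, Ppic and Ttn, at r of 0.998, 0.994, 0.990, 0.988 and 0.987. All 6 points share the split into fractions and the depth of each library, and no p is given. Hc, which encodes complement C5, had 13.8, 61.9 and 60.03 CPM in positive and 428, 624 and 625 CPM in negative libraries. Like Tex15, it was lowest in the positive library of mouse 1. Ndnf, a secreted neuron-derived factor, was at 0.676, 2.06 and 2.54 CPM in positive and 29.5, 27.7 and 25.2 CPM in negative libraries. Kansl1l was at 47.8 to 63.0 CPM in positive and 92.2 to 108 CPM in negative libraries. Ppic, a cyclophilin, was at 7.77 to 10.1 CPM in positive and 16.3 to 18.6 CPM in negative libraries. Kansl1l and Ppic thus differed between the groups over a much smaller range. These genes were ranked by likeness to Tex15, itself picked for its fall, so their lower level in positive libraries follows from the ranking. Sharing the lowest library with Tex15, as Hc does, is part of that likeness and no separate result.

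Of the 9 genes not picked for a difference, 8 had at least 1 read, 3 were kept by the filter on low counts (Tdrkh, Tdrd7 and Mybl1), and none of the 3 was called at an adjusted p under 0.05 by the edgeR quasi-likelihood test. None had an unadjusted p under 0.05, and neither DESeq2, nor a fit with the mouse as a term, nor a fit without the filter, which took in 8 of the 9, called any. Of all 13175 genes tested, 0.622% were called, and 3.15% with the mouse as a term. A count of 0 among 3 genes cannot be set apart from that share. Tdrkh and Mybl1 passed the filter through their negative libraries, so their lower fitted levels in positive libraries follow in part from the filter.

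Tdrd7 and Tdrkh encode cytoplasmic Tudor proteins. Tdrd7, whose protein acts on mRNA granules in germ cells and in the eye lens, lies on chromosome 4 at 45965334 to 46034761. It had 123, 192 and 196 reads in positive and 132, 154 and 156 reads in negative libraries, or 27.4 ± 5.77 CPM in positive and 28.5 ± 2.57 CPM in negative ones (SD, n = 3 each). The groups overlapped, and within mice the positive library was lower in mouse 1 and slightly higher in mice 2 and 3. On the log2 scale it differed by -0.06 ± 0.249 (SE; edgeR adjusted p = 0.953), with a 95% interval of -0.60 to 0.49, so neither a difference of 1 log2 unit up nor 1 down lies within it.

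Tdrkh, a mitochondrial Tudor and KH domain protein that helps trim piRNA 3′ ends, lies on chromosome 3 at 94413273 to 94434668. It had 0, 8 and 12 reads in positive and 10, 21 and 10 reads in negative libraries. In CPM the groups just failed to overlap, with 1.91 CPM in the highest positive and 1.94 CPM in the lowest negative library, while the raw reads did overlap. Of all genes tested, 17.3% had groups that did not overlap. Its difference of -1.29 ± 0.889 in log2 (SE; edgeR adjusted p = 0.632) had a 95% interval of -3.25 to 0.66, and was -0.73 without the positive library of mouse 1. Exons of Oaz3 on the opposite strand cover 36.7% of its exonic length, and Oaz3 had 2 to 4 reads in positive and 2 to 6 reads in negative libraries, which cannot be separated by strand here.

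Mybl1, on chromosome 1 at 9667415 to 9700209, encodes A-MYB, the transcription factor that switches on piRNA precursor genes and many pathway genes in meiotic male germ cells. It had 3, 19 and 3 reads in the positive libraries of mice 1, 2 and 3, against 11, 14 and 11 reads in the negative ones. The positive library of mouse 2 was the highest of all 6, and those of mice 1 and 3 the lowest. On the log2 scale it differed by -0.79 ± 0.775 (SE; edgeR adjusted p = 0.753; 95% interval -2.49 to 0.91), and -2.19 without the positive library of mouse 2 (edgeR adjusted p = 0.309). Of its relatives, Myb was at 143 ± 25.3 CPM in positive and 134 ± 21.4 CPM in negative libraries (SD, n = 3 each; edgeR adjusted p = 0.886). Mybl2, a cell cycle MYB protein, was at 2.05 ± 0.736 CPM in positive and 1.87 ± 0.390 CPM in negative libraries (SD, n = 3 each), with an edgeR adjusted p = 0.957.

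Pld6 and Henmt1 act at opposite ends of piRNA maturation. Pld6, on chromosome 11 at 59783897 to 59787645, is the mitochondrial outer membrane enzyme whose fly counterpart Zucchini cuts piRNA precursors. It had 21, 0 and 7 reads in the positive and 14, 11 and 4 reads in the negative libraries of mice 1, 2 and 3. Henmt1, on chromosome 3 at 108939873 to 108960774, methylates the 3′ end of finished piRNAs, and had 31, 0 and 6 reads in the positive and 9, 3 and 5 reads in the negative libraries. Both were highest in the positive library of mouse 1 and without a read in that of mouse 2, so the positive libraries enclosed all negative values. The limits drawn above from 3 reads hold counting error alone, because the RNA was amplified and its reads carry no molecular identifiers.

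The remaining 4 genes were at or near 0. Mov10l1, the RNA helicase that feeds precursors into processing, had 0, 0 and 1 reads in positive and 0, 2 and 3 reads in negative libraries. Tdrd1, a Tudor scaffold that binds the Piwi protein MILI, had 4, 0 and 1 reads in positive and 1, 0 and 2 reads in negative libraries. Asz1, a mitochondrial scaffold also called GASZ, had 0 reads in every positive library and 1 read in all, in the negative library of mouse 2. Gtsf1, a zinc finger cofactor of Piwi proteins, had 0 reads in all 6 libraries. At this depth these 4 are not detectable above, or only just above, the level of 3 reads in any library, and no fold is given for them.

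Divided by exonic length, the order of levels among the 10 genes could be compared. In negative libraries Tdrd7 was highest at 7.21 ± 0.649 CPM per kb, followed by Tex15 at 2.30 ± 0.450 and Pld6 at 1.06 ± 0.564 CPM per kb (SD, n = 3 each). Libraries of these 3 genes did not overlap from one to the next. Tdrkh at 0.430 ± 0.196, Mybl1 at 0.430 ± 0.0588 and Henmt1 at 0.411 ± 0.222 CPM per kb came next, and their libraries overlapped one another and those of Pld6. In positive libraries Tdrd7 was again highest at 6.93 ± 1.46 CPM per kb and stood clear of all others. Pld6 at 0.884 ± 1.03, Henmt1 at 0.771 ± 1.04, Mybl1 at 0.246 ± 0.269, Tdrkh at 0.172 ± 0.158 and Tex15 at 0.0934 ± 0.0813 CPM per kb each overlapped the next in order. On the same scale Piwil4 was at 19.08 ± 1.47 CPM per kb in positive and 7.41 ± 1.60 CPM per kb in negative libraries, so its libraries overlapped those of Tdrd7 in the negative group and lay above them in the positive group.

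**Figure D3:**
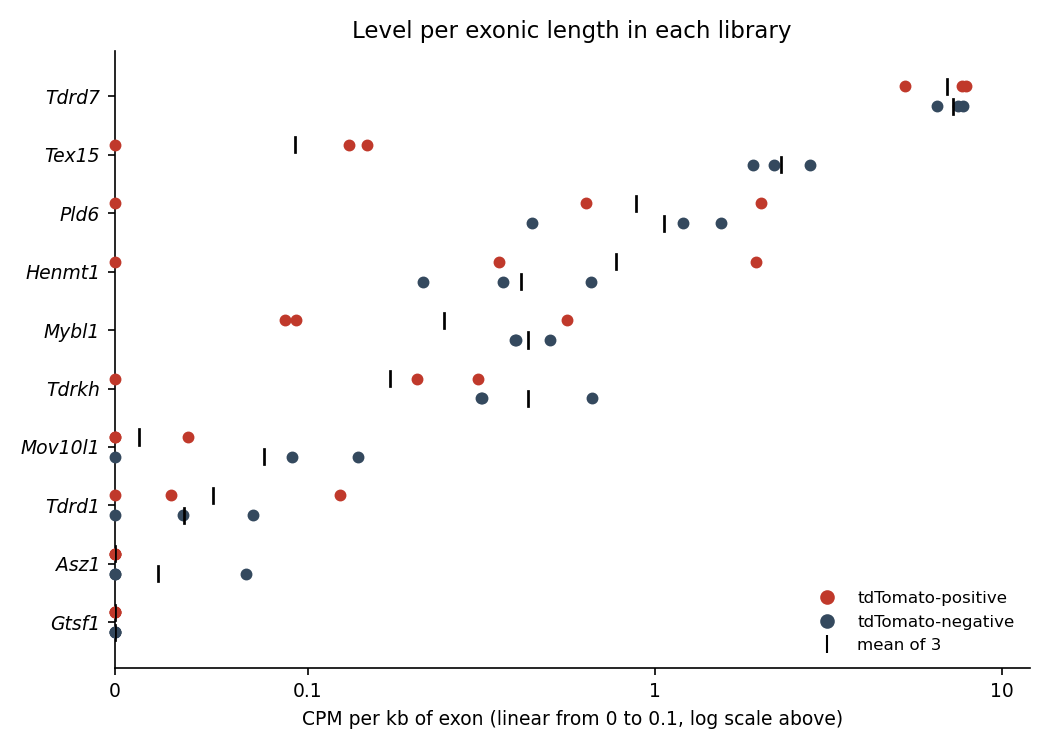
CPM per kb of exonic length for each gene, with 3 tdTomato-positive (red, upper) and 3 tdTomato-negative (dark, lower) libraries and their means as black ticks, on an axis linear to 0.1 and logarithmic above. Tdrd7 leads in both groups, and Tex15 is the second in negative but the sixth in positive libraries by its mean.

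Most other genes of the pathway had few or no reads. Of 21 further piRNA pathway genes, 17 had a read, 5 were kept by the filter, and Piwil4, whose reporter defined the sort, was the 1 called gene, higher in positive libraries (log2 fold change 1.36 ± 0.208 SE; edgeR adjusted p = 0.012). The edgeR adjusted p reached 0.165 when 1 library or 1 mouse was left out, and the call was missed when negative libraries 1 or 2 (numbered by mouse), positive library 3 or any mouse were dropped. Its Piwi relative Piwil1 had no read, and Piwil2 had 2, 3 and 10 reads in positive and 3, 2 and 7 reads in negative libraries, both named after their values were seen. Prmt5, the arginine methyltransferase that makes the marks Tudor proteins bind, was at 24.1 ± 5.16 CPM in positive and 23.9 ± 3.96 CPM in negative libraries (SD, n = 3 each; edgeR adjusted p = 0.992). Kif17, a kinesin, was at 5.26 ± 1.32 CPM in positive and 4.46 ± 0.543 CPM in negative ones (SD, n = 3 each; edgeR adjusted p = 0.882). Gpat2, a mitochondrial acyltransferase needed for piRNAs in mouse testis and also named after its values were seen, had 57, 21 and 14 reads in positive and 6, 10 and 12 reads in negative libraries (edgeR adjusted p = 0.462).

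Of 12 further Tudor-type proteins, 12 had a read, 10 were kept and none was called, and 1 had an unadjusted p under 0.05. Their median log2 fold change was -0.26, beside 0.03 over all 13175 genes. Arid4b, a chromatin protein, was at 243 ± 40.9 CPM in positive and 302 ± 34.2 CPM in negative libraries (SD, n = 3 each; edgeR adjusted p = 0.558). Its paralog Arid4a was at 83.5 ± 14.0 CPM in positive and 117 ± 6.25 CPM in negative libraries (SD, n = 3 each; edgeR adjusted p = 0.352). Tdrd3, a Tudor protein of somatic cells, was at 55.3 ± 5.33 CPM in positive and 66.9 ± 9.13 CPM in negative libraries (SD, n = 3 each; edgeR adjusted p = 0.640). Arid4b, Arid4a and Tdrd3 were each lower in 3 of 3 mice, and no share of all genes is given for that.

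**Figure D4:**
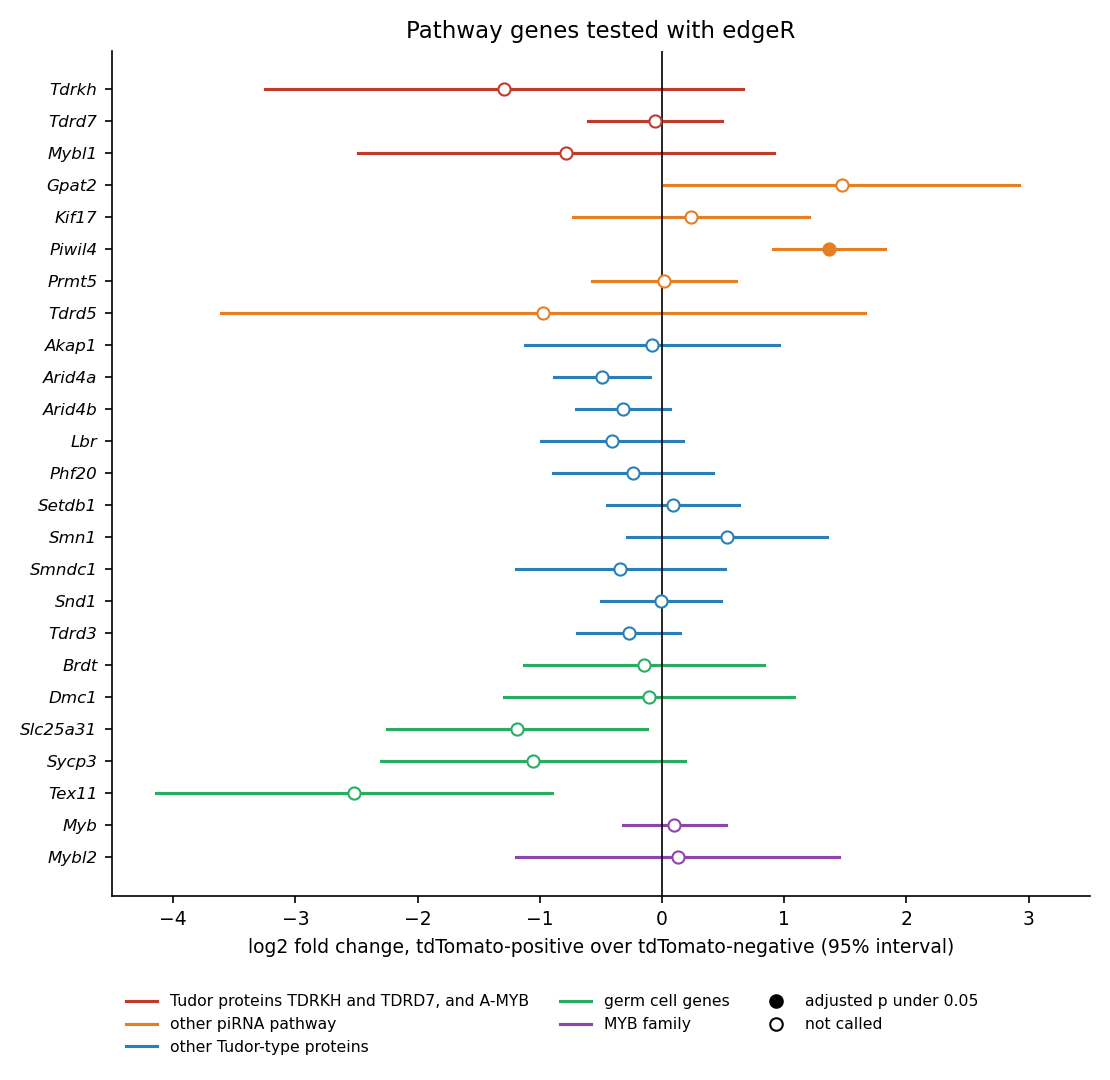
Log2 fold change, tdTomato-positive over tdTomato-negative, with its unadjusted 95% interval for the 25 listed genes kept by the filter, Tex15 left out. Piwil4, at 1.36, is the filled point called at an adjusted p under 0.05, and the intervals of Tdrkh and Mybl1 are wide, each gene having 61 reads in all.

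Of 22 germ cell genes, 16 had a read and 5 were kept, none of them called, with 2 at an unadjusted p under 0.05. Prm2, Tnp1, Tnp2, Spo11, Sycp1 and Tex101, genes of meiosis and sperm, had no read in any library. Brdt, a testis bromodomain protein, was at 8.29 ± 3.70 CPM in positive and 9.18 ± 3.84 CPM in negative libraries (SD, n = 3 each; edgeR adjusted p = 0.927). Dmc1, a recombinase of meiosis, was at 4.64 ± 2.48 CPM in positive and 4.98 ± 2.31 CPM in negative libraries (SD, n = 3 each; edgeR adjusted p = 0.963). Slc25a31, a testis ADP/ATP carrier, was at 2.37 ± 0.168 CPM in positive and 5.42 ± 1.40 CPM in negative libraries (SD, n = 3 each; edgeR adjusted p = 0.423), lower in 3 of 3 mice. Tex11, a meiosis gene named after its values were seen, had 5, 3 and 1 reads in positive and 11, 15 and 19 reads in negative libraries (edgeR adjusted p = 0.227), without overlap. In CPM the groups of Slc25a31 and of Sycp3, also named after its values were seen, did not overlap either, while those of Brdt and Dmc1 did. Of all genes tested, 17.3% had groups that did not overlap. The median log2 fold change of the 5 kept genes was -1.05, beside 0.03 over all genes tested. Tex11 and Sycp3 passed the filter through their negative libraries, where they were higher, so this median follows in part from the filter.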

How the data were processed

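Amplified RNA of sorted lung cells was sequenced, per the labels' protocols. Each deposited file gives the raw read count of every gene symbol in 1 library. Named in the submitters' processing notes are cutadapt 1.7.1, STAR 2.4.2a, HTSeq, DESeq2 and the build GRCm38.p4. The HTSeq strand setting is not given in the sources used here, so antisense overlaps cannot be resolved. HTSeq summary rows, left out of library sizes, held 41.0% to 49.4% of reads in no gene, 1.31% to 1.99% ambiguous and 8.26% to 12.0% aligned to several places.

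From these counts, log2 fold changes, standard errors and two-sided p-values came from the quasi-likelihood test in edgeR 4.0.16 (R 4.3.3; TMM factors, robust fits) over all 13175 genes kept by filterByExpr (count minimum 10), with Benjamini-Hochberg adjustment and a threshold of 0.05. CPM uses the same scaling. Nothing in the sources says more of the replicates than that they are 3 mice. The individual label pairs the libraries, and the deviations of libraries of 1 mouse correlated at 0.263, 0.254 and 0.346, so a fit with a replicate block for the mouse was made too. Other alternatives were library size only, RLE factors, no filter, a stricter filter (1 CPM in 3 libraries), DESeq2 1.42.0 and leaving out each library or mouse. The fit was tested on simulated data, drawn with less spread than these libraries and with no difference between mice. That test therefore does not show how the fit performs on the libraries themselves. Exonic lengths and positions come from GENCODE M21 on GRCm38, and promoter windows from RefSeq.

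The genes and lists were chosen with earlier results of these data known. Named are the 10 genes, Piwil4, the 3 most abundant genes and any called gene of each further list (1 listed symbol was not analysed here), and the 5 genes most like Tex15. Other lists were leukocyte markers, summing to 38.6 to 68.3 CPM in positive and 66.9 to 204 CPM in negative libraries, club cell markers at 8582 to 21739 and 4855 to 8244 CPM, and mesenchymal and endothelial markers at 5.56 to 23.5 and 8.19 to 50.1 CPM.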

Additional observations from a re-analysis of the deposited data

How the results depend on the processing

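Between the fractions, 82 genes were called, 6 higher and 76 lower, and with library size only 22 were higher and 54 lower. That scaling put the median of all genes at a log2 fold change of 0.29, against 0.03. The count was 413 with no filter, 245 with DESeq2, 415 with the mouse as a replicate block, and 22 to 113 when 1 library or mouse was left out. None of the 9 genes other than Tex15 was called under any of the 15 alternatives, block included. Of the further pathway genes, 0 to 1 was called when libraries were left out, the 1 being Piwil4, which missed the threshold when negative libraries 1 or 2 (numbered by mouse), positive library 3 or any mouse were dropped (edgeR adjusted p = 0.0651, 0.0663, 0.0752, 0.108, 0.130 and 0.165). With the block, 8 alveolar type 2 markers were called lower (6 without it), and 3 multiciliated markers, Foxj1 among them, higher (0 without it). Of the 7 club cell markers 5 were called higher (0 without it), and of the 8 leukocyte markers 2 lower (0 without it). The basal marker Trp63, the 1 of 4 kept by the filter, was called lower in both fits. With no read in any positive library, it passed the filter through its negative libraries alone. Of all genes tested, 3.15% were called with the block and 0.622% without it. The block changed no call of the pathway, Tudor, germ cell or MYB genes given with a p. Tex15 kept a log2 fold change of -5.05 to -4.01, Tdrkh one of -2.18 to -0.73 and Mybl1 one of -2.19 to -0.39.

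Among the genes reported with a fold change, signs changed for 6, none of them called. With library size only, the log2 fold change was 0.21 for Tdrd7, 0.086 for Brdt and 0.12 for Dmc1. When libraries or mice were left out it ran from -0.16 to 0.11 for Tdrd7, -0.11 to 0.18 for Prmt5, -0.80 to 0.30 for Brdt, -0.76 to 0.61 for Dmc1, -0.026 to 0.24 for Myb and -0.23 to 0.51 for Mybl2. The cause was not tested. Few reads limit Tdrkh, Mybl1, Pld6 and Henmt1, each with 54 to 61 reads in all.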

Other observations

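Germ cell genes with few reads, named after their values were seen and not kept by the filter, went both ways between the fractions. Stra8, the retinoic acid-induced gene of meiotic entry, had 4, 8 and 15 reads in the positive libraries of mice 1, 2 and 3, against 0, 2 and 2 reads in the negative ones. Prdm9, the histone methyltransferase that places meiotic recombination, had 0, 7 and 2 reads in positive and 14, 7 and 14 reads in negative libraries. In CPM neither gene's groups overlapped, but the raw reads of Prdm9 did, at 7 in both libraries of mouse 2. The share without overlap was 17.3% among the 13175 genes kept by the filter, and none is given for genes below it. Ddx4, the germ cell helicase VASA, had 24 of its 34 reads in the positive library of mouse 3. Dnmt3l, the cofactor of germ line DNA methylation, had all of its 5 reads in that library, and Btbd18 had 10 of its 18 reads there. Of the 10 genes above, Tdrd7 was also highest there, at 31.1 CPM, while Henmt1 and Pld6 were highest in the positive library of mouse 1, and Mybl1 in that of mouse 2.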
